A study of Mus musculus with 9 samples.

Results

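Glycolysis, the handling of pyruvate and lactate, and the citric acid cycle were followed through 37 member genes in motoneuron libraries of the mouse spinal cord. The members were taken from the deposited gene table by symbol: 17 genes of glycolysis, 9 of the pyruvate and lactate steps and 11 of the citric acid cycle, among 55401 genes in all. The rule itself is a list of symbols and uses no measured value, though the list was drawn up with earlier results of these data known. All 37 passed the filter on low counts that left 15893 genes for testing.

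Glycolysis splits glucose into pyruvate in the cytosol and yields a little ATP and NADH without oxygen. Lactate dehydrogenase converts pyruvate and lactate into each other, monocarboxylate transporters carry lactate across membranes, and the pyruvate dehydrogenase complex commits pyruvate to the mitochondrial citric acid cycle, whose NADH feeds the respiratory chain. In nervous tissue, neurons are known for relying on oxidative metabolism, while astrocytes and oligodendrocytes are known as glycolytic cells that can export lactate to neurons.

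The study compared wild-type mice of a sham group, whose treatment the labels give as none, mice with a spinal cord injury (SCI) alone, called untrained, and mice with SCI that received synergistic bidirectional electrical stimulation (SBES). Motoneurons labelled with TRDA, as the labels name the tracer, were aspirated from fresh slices 4 weeks after SCI, and their RNA was sequenced with Smart-seq2, a full-length cDNA method. Each group has 3 libraries and the labels name 3 mice per group, without tying a library to a mouse or giving the number of neurons in a library, so a p-value reflects how far these libraries differ among themselves, which may be technical in part. SBES libraries 1, 2 and 3 were stimulated at 10, 15 and 20 Hz, so frequency and library cannot be told apart within that group.

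Total counts ran from 11821145 to 17675948 per library. The 3 libraries numbered 1 stood apart from the others in the nuclear RNA Malat1. It reached 4774 to 16069 CPM (counts-per-million) in them and 514 to 1617 in the other 6. Mitochondrially encoded genes took 18.6% of the counts of SBES 1 and 7.36% of sham 1. They took 3.28% of untrained 1, within the 2.47% to 6.27% of the rest. Each of 11 motor neuron markers, Chat and Slc18a3 among them, had counts in every library. Markers of other spinal cord cells did too, so a level below is that of a mixed RNA sample, in which fewer cells of a type and less RNA per cell cannot be told apart. Per library, the sum over 11 oligodendrocyte markers lay between 5005 and 14110 in the unit used below. It was 1142 to 3355 over 11 astrocyte markers and 164 to 687 over 11 motor neuron markers. The sum over the 4 leukocyte markers tested was 3057 in sham 1 but 80.8 in sham 2 and 27.7 in sham 3. It was 290 to 1083 in untrained and 214 to 533 in SBES libraries.

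Levels are CPM, with library totals scaled by TMM, divided by the exonic length in kilobases. That length exceeds a gene's longest coding transcript unequally, with 13401 against 4145 bases for Pfkp and 3340 against 2879 for Pfkm. Rankings between genes therefore depend on the length used. The members spanned from 0.0726 (Slc16a7 in untrained 1) to 3303 (Ldhb in sham 1) on this scale. Aldoc, the aldolase known from neural tissue, and Ldhb, the lactate dehydrogenase subunit known from oxidative tissues, were the highest of the 37, followed by Aldoa and Mdh1.

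**Figure D1:**
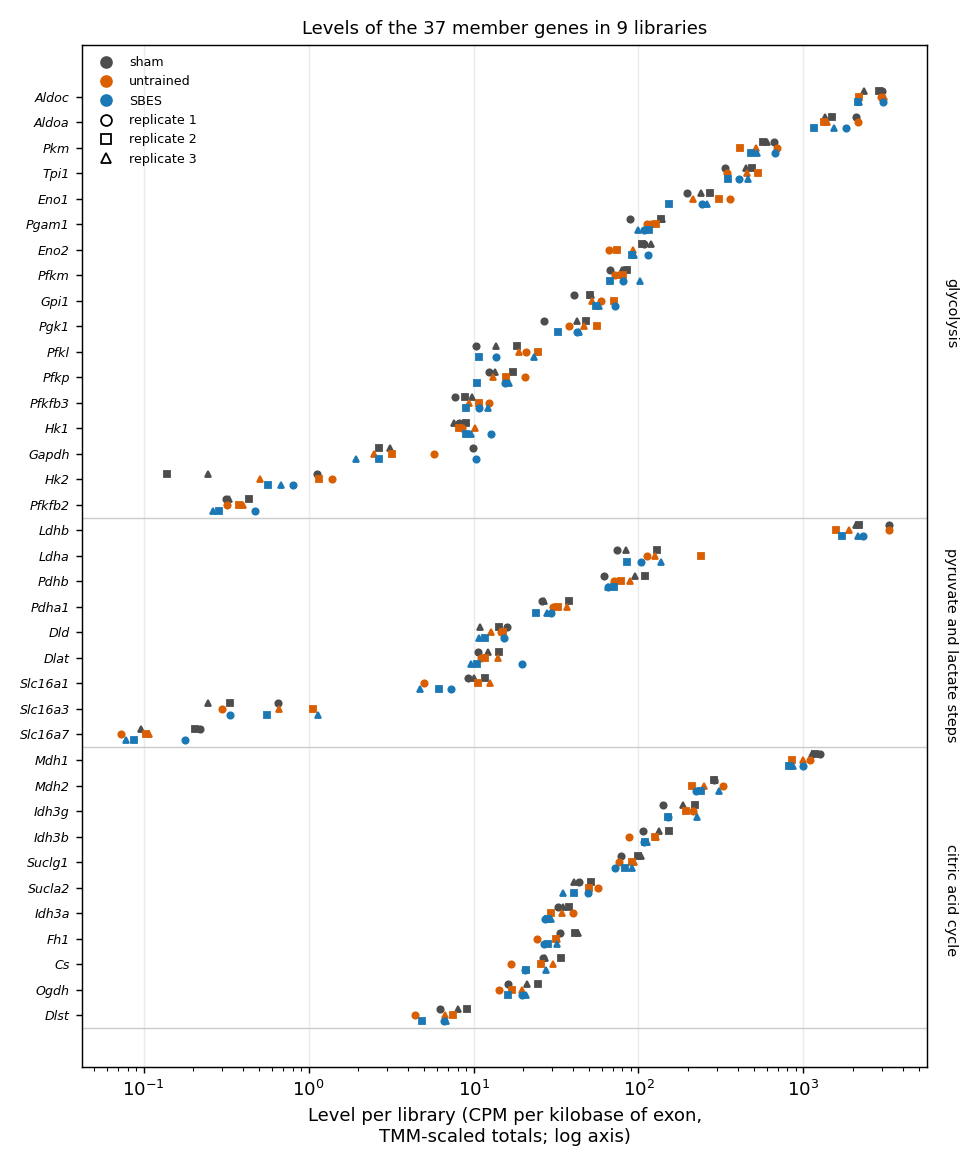
Levels of the 37 member genes in each of 9 libraries, on a log axis in CPM per kilobase of exon (TMM-scaled totals), with genes ordered by mean level within glycolysis, pyruvate and lactate steps, and citric acid cycle. Differences between genes, from 0.0726 to 3303, are far wider than those between groups for most genes.

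Of the hexokinase genes, whose products phosphorylate glucose, Hk1, the form bound to mitochondria in brain, lay between 7.64 and 12.8 and Hk2, the inducible form, between 0.138 and 1.38. Gpi1, which turns glucose 6-phosphate into fructose 6-phosphate, ran from 40.4 to 72.1. For phosphofructokinase, the committing step, the muscle-type gene Pfkm (67.0 to 102.4) was above Pfkl (10.3 to 24.7) and Pfkp (10.5 to 20.4) in every library. For Pfkp this rests on dividing counts by a gene length, since in untrained 1 its count of 4142 was above the 3660 of Pfkm. Of the enzymes that make and break down its activator fructose 2,6-bisphosphate, Pfkfb3 lay between 7.71 and 12.3 and Pfkfb2 between 0.264 and 0.476.

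The later steps of glycolysis ranged from the most abundant transcripts to low ones. Aldoa ran from 1166 to 2148, Aldoc from 2132 to 3065, the triose phosphate isomerase gene Tpi1 from 335 to 533 and the pyruvate kinase gene Pkm from 415 to 692. Eno1, the ubiquitous enolase, lay between 154 and 359, the mutase gene Pgam1 between 88.4 and 137.9, and Pgk1, which makes the first ATP, between 26.8 and 55.7. Gapdh, the glyceraldehyde 3-phosphate dehydrogenase and a common reference gene, was listed at only 1.95 to 10.3.

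Gapdh is known for its many processed pseudogenes. Of all stretches of 50 bases in its longest coding transcript, 82.5% also occur in transcripts of other genes, 213 of them pseudogenes among 222 genes, and the table's exonic length for it is 4133 bases against 1420 in that transcript. The same share was 72.2% for Eno1, 68.0% for Pgk1, 41.5% for Pgam1, 34.4% for Pkm, 30.3% for Pdhb, 27.0% for Ldhb, 25.3% for Gpi1, 25.1% for Pfkfb2, 17.1% for Pfkp, 16.9% for Pdha1, 16.6% for Ldha, 13.5% for Aldoa and 7.51% for Tpi1. How reads with several matches were counted is not given in the sources used here, so the levels of these genes are uncertain, and the part of repeated sequence in the low Gapdh level was not tested. In the citric acid cycle the share was 4.00% for Cs and 0 for the other 10 members.

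At the branch from pyruvate, Ldhb (1586 to 3303) was far above Ldha (74.5 to 237.8), the subunit known from glycolytic tissues. The lactate transporter genes were much lower. Slc16a1, which encodes MCT1 and is known from oligodendrocytes and endothelium, ran from 4.74 to 12.5. Slc16a3 (MCT4), known from astrocytes and other glycolytic cells, lay between 0.246 and 1.14, and Slc16a7 (MCT2), the high-affinity transporter known from neurons, between 0.0726 and 0.221, with 13 to 38 counts per library. The pyruvate dehydrogenase subunits were at 23.9 to 38.1 for Pdha1 and 61.4 to 110.003 for Pdhb, the catalytic pair, at 9.61 to 19.8 for Dlat, the acetyl-transferring core, and at 10.8 to 16.0 for Dld, the lipoamide dehydrogenase that 2-oxo acid dehydrogenases share.

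In the cycle, the malate dehydrogenase genes were highest: Mdh1, the cytosolic form, at 813 to 1260, and Mdh2, the mitochondrial form, at 212 to 325. The subunits of isocitrate dehydrogenase differed, with Idh3g at 141 to 226, Idh3b at 87.3 to 153.8 and the catalytic Idh3a at 27.1 to 40.05. Citrate synthase, Cs, lay between 16.8 and 34.0, Ogdh and Dlst of the 2-oxoglutarate dehydrogenase complex at 14.2 to 24.6 and 4.39 to 9.08, and the succinyl-CoA ligase genes Suclg1 and Sucla2 at 71.96 to 104.2 and 34.6 to 56.7. Fumarase, Fh1, ran from 24.2 to 43.0. Mdh1 alone set most of the summed level of the cycle members, which was 2059 ± 66.2 in sham (SD, n = 3), 1816 ± 162 in untrained and 1661 ± 114 in SBES libraries. The sums were 2011 to 2135 in sham, above the 1635 to 1949 of untrained and the 1533 to 1750 of SBES libraries. For glycolysis the sums overlapped, at 5432 to 6638, 5227 to 6913 and 4690 to 6636.

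Injury without stimulation was compared with sham first, and no member passed the test. With edgeR and Benjamini-Hochberg adjustment over all genes tested, 0 of the 37 members had an adjusted p under 0.05, and the share among all 15893 genes was 0%. DESeq2 called 0 members and 18 genes. Of the members, 2 had an unadjusted p under 0.05, Eno2 and Ldha, against 4.45% of all genes. For 5 members the 2 groups had separate ranges, 2 higher after injury (against 4.63% of all genes) and 3 lower (against 5.13%). Shares of 37 genes move in coarse steps, and these counts lie near the background. Pfkl and Gpi1 were the higher ones, Eno2, Fh1 and Mdh1 the lower ones.

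Eno2 is the neuronal enolase, a classic marker of neurons. Its levels were 107, 104 and 119 in sham libraries 1 to 3 and 66.5, 74.2 and 93.1 in untrained ones. Every untrained library was below every sham library, and untrained 3 was nearest to them. The log2 fold change was -0.50 (SE 0.22, adjusted p = 0.9997 with edgeR). A sum over 12 pan-neuronal markers was lower in untrained libraries too, at 1735 to 2193 against 2651 to 3479 in sham, and its part in the Eno2 difference was not tested.

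Ldha levels were 74.5, 128.6 and 84.5 in sham and 112.6, 237.8 and 125.3 in untrained libraries. Untrained 2 was the highest of all 9, and the other 2 untrained libraries lay below sham 2. The log2 fold change of 0.73 (SE 0.33, adjusted p = 0.9997 with edgeR) became 0.31 without untrained 2.

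Pfkl, the liver-type phosphofructokinase, had 10.3, 18.3 and 13.6 in sham and 20.9, 24.7 and 18.8 in untrained libraries, a log2 fold change of 0.61 (SE 0.30). The gap between the groups was narrow, since sham 2 and untrained 3 were almost equal. For Gpi1 the levels were 40.4, 51.1 and 51.2 against 59.6, 71.5 and 52.6, with a log2 fold change of 0.36 (SE 0.22). Here too untrained 3 was hardly above sham. Markers of endothelium and pericytes were higher in untrained libraries (10 of 11 positive, 5 of 11 with an unadjusted p under 0.05, summed level 292 to 428 against 196 to 338 in sham, and no marker tested at 0). Microglia markers were positive in 10 of 10, 0 of them with an unadjusted p under 0.05. Their sums overlapped, at 851 to 1073 against 470 to 1142 in sham. The part of both marker sets in these values was not tested.

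Among the cycle genes, Fh1, which hydrates fumarate to malate, had 33.2, 41.1 and 43.0 in sham and 24.2, 31.6 and 31.9 in untrained libraries. The log2 fold change was -0.42 (SE 0.21). Mdh1, which also works in the malate-aspartate shuttle, had 1259.7, 1176 and 1123 against 1089.7, 851 and 999.8. Its log2 fold change was -0.28 (SE 0.24), little more than its error. All members named here had an adjusted p of 0.9997 with edgeR.

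By role, the median log2 fold change was 0.07 for glycolysis (11 of 17 positive), -0.02 for the pyruvate and lactate steps (4 of 9 positive) and -0.21 for the cycle (9 of 11 negative), beside -0.0068 over all genes tested. Over all members 20 of 37 were negative, against 50.9% of all genes. Without the 3 libraries numbered 1, the medians were 0.04, 0.12 and -0.16. Leaving out 1 library moved them from 0.045 to 0.18 for glycolysis (highest without sham 2, and 0.12 to 0.13 without sham 1, untrained 1 or untrained 2), from -0.09 to 0.09 for the pyruvate and lactate steps and from -0.29 (without untrained 3) to -0.094 (without untrained 1; -0.13 without sham 2) for the cycle. Markers of motor neurons were lower in the same comparison (10 of 11 negative, 3 at an unadjusted p under 0.05, summed level 164 to 260 in untrained and 272 to 687 in sham). Oligodendrocyte markers were too (10 of 11 negative, 3 at an unadjusted p under 0.05, summed level 5005 to 7667 against 6840 to 14110). Their part in the cycle values was not tested. For abundant members the intervals were wide enough to hold sizeable changes in either direction: Aldoc had a log2 fold change of 0.00 with a 95% interval from -0.64 to 0.64, and Ldhb -0.16 with an interval from -0.88 to 0.56.

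**Figure D2:**
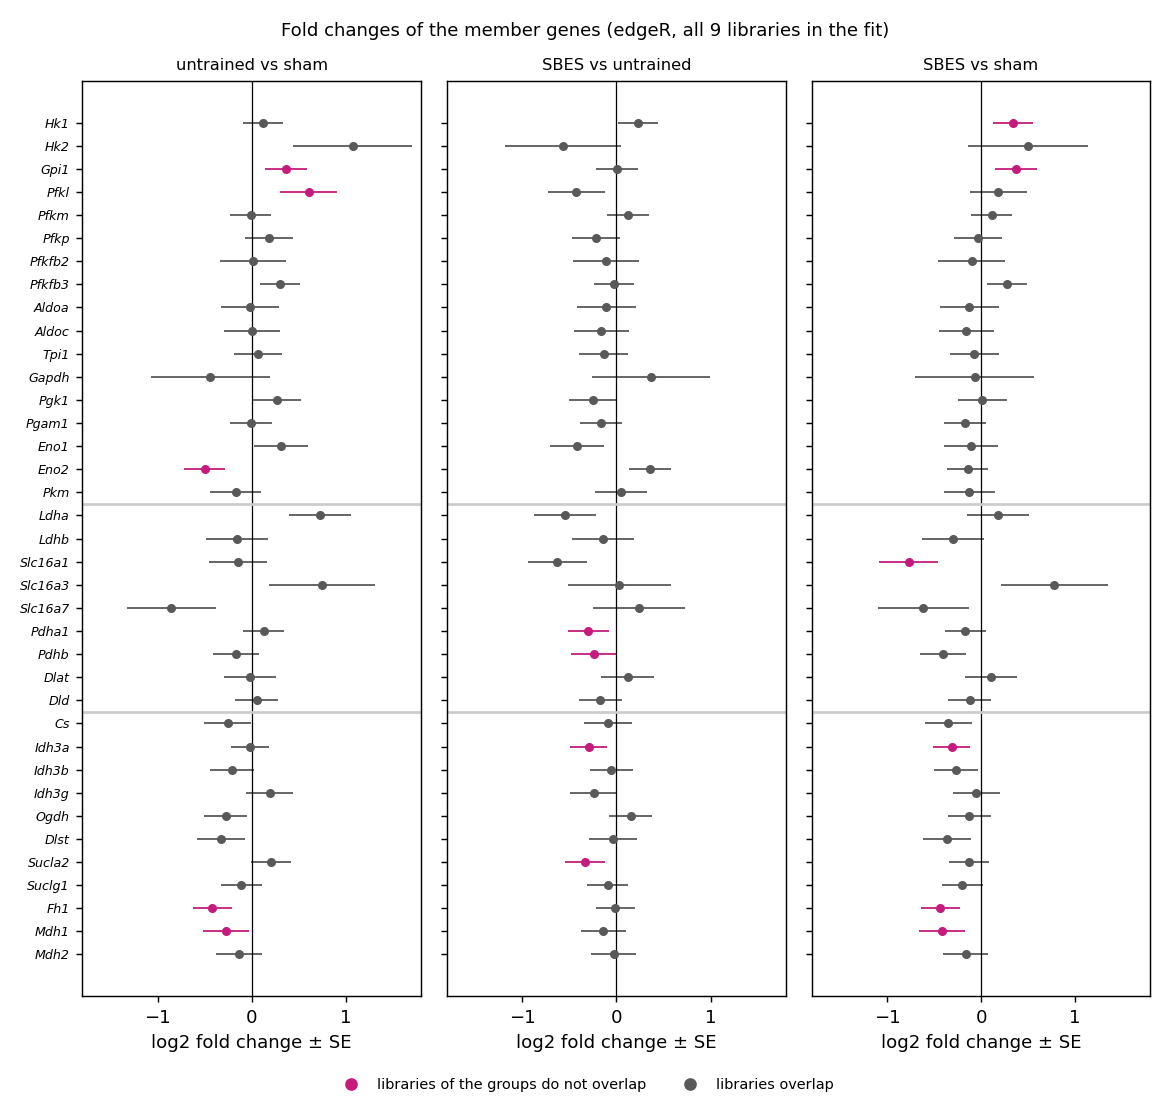
Log2 fold change (x axis) with its SE for each member gene in the 3 comparisons, from 1 edgeR fit over 9 libraries, with genes whose libraries do not overlap between the groups in magenta. All 11 cycle genes lie left of 0 in SBES against sham, and no member passed the adjusted threshold in any panel.

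Stimulated libraries were set against untrained ones next, to ask what SBES adds after the injury. With edgeR 0 of 37 members passed (0% of all genes), 0 had an unadjusted p under 0.05 (5.37% of all genes), and DESeq2 called 0 members and 30 genes. No member was higher without overlap (5.66% of all genes) and 4 were lower without overlap, 10.8% against 4.77% of all genes. These 4 were Pdha1, Pdhb, Idh3a and Sucla2, which encode parts of the pyruvate dehydrogenase complex, isocitrate dehydrogenase and succinyl-CoA ligase.

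Pdha1 had 30.2, 32.7 and 36.7 in untrained and 29.4, 23.9 and 27.8 in SBES libraries, with a log2 fold change of -0.30 (SE 0.22). Pdhb had 71.5, 77.9 and 88.6 against 65.1, 71.1 and 65.2, with a log2 fold change of -0.24 (SE 0.24). Idh3a had 40.05, 29.6 and 34.4 against 27.1, 28.3 and 29.3, with a log2 fold change of -0.30 (SE 0.20). Sucla2, the ATP-forming ligase subunit, had 56.7, 49.9 and 50.4 against 49.6, 40.4 and 34.6, with a log2 fold change of -0.33 (SE 0.21). In all 4 genes the lowest untrained library and the highest SBES library almost touched. Each difference was smaller than 2 SE, and the adjusted p-values with edgeR were 0.991 for Sucla2, 0.993 for Pdha1 and Idh3a, and 0.996 for Pdhb.

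The other members showed no such separation. Eno2 was at 114, 91.9 and 93.6 in SBES libraries, overlapping both other groups. Ldha was at 103, 84.7 and 136.5 and Pfkl at 13.7, 10.8 and 23.4. For these 2 genes the SBES levels covered most of the sham range and reached into the untrained one. The log2 fold changes against untrained were 0.36 for Eno2, -0.55 for Ldha and -0.42 for Pfkl, with intervals that include 0. Over roles the medians were -0.11 for glycolysis (11 of 17 negative), -0.17 for the pyruvate and lactate steps (6 of 9) and -0.09 for the cycle (10 of 11), beside 0.02 over all genes. In all 27 of 37 members were negative, against 48.3% of all genes. The members come from the same libraries and are not 37 separate observations. Astrocyte markers were positive in 11 of 11 (0 at an unadjusted p under 0.05). Pan-neuronal markers were positive in 9 of 12 (2 at an unadjusted p under 0.05) and motor neuron markers in 5 of 11. The part of these markers in the member values was not tested. The medians moved with single libraries. For glycolysis the median was -0.25 without SBES 1, -0.052 without untrained 1 and -0.0014 without SBES 2, and for the pyruvate and lactate steps it was -0.33 without untrained 1 and -0.28 without SBES 1. For the cycle it was -0.20 without untrained 1, -0.17 without SBES 3, -0.057 without untrained 2, -0.048 without SBES 2, -0.040 without SBES 1 and -0.035 without untrained 3. The number of cycle members below 0 was then 6 without untrained 3 and 7 without untrained 2 or SBES 2. Without the libraries numbered 1 the medians were -0.23, -0.36 and -0.16.

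**Figure D3:**
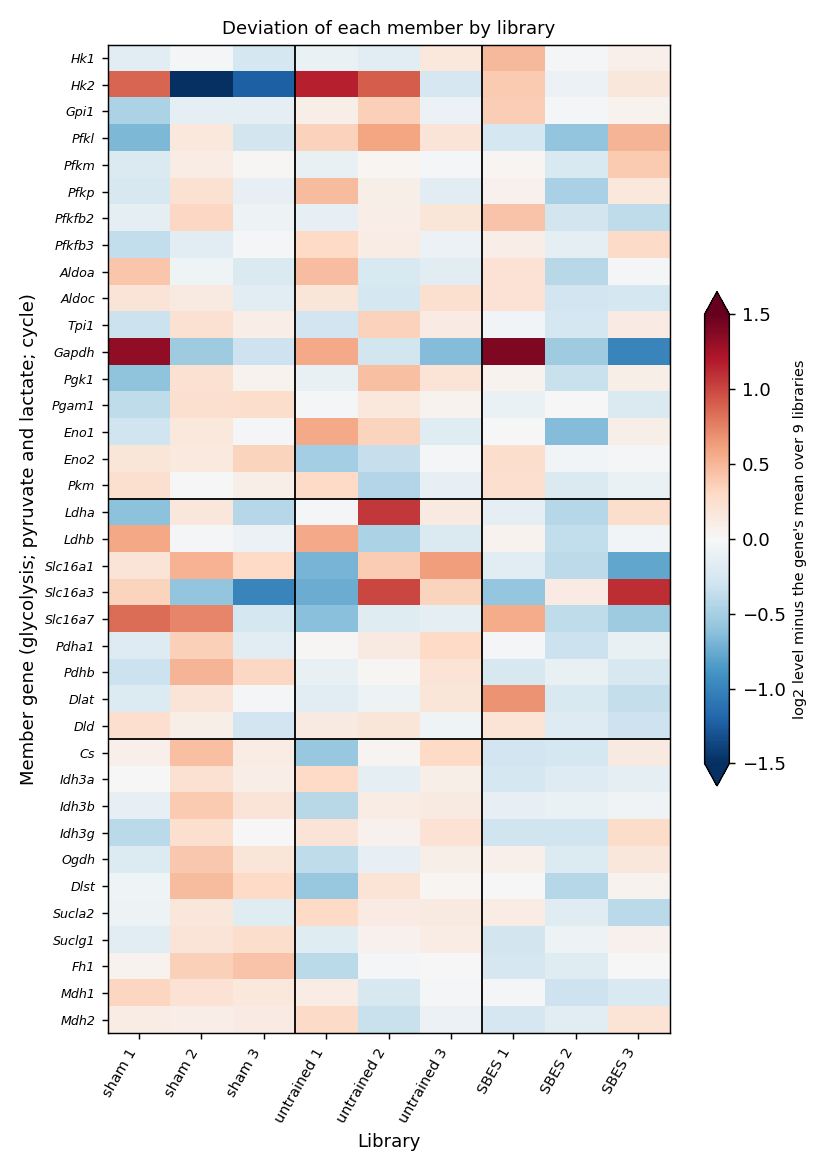
Log2 level of each member in each library minus the gene's mean over 9 libraries, as colour, with genes in rows by role and libraries in columns by group. Hk2, Gapdh and Slc16a3 vary most between single libraries, and of the 11 cycle genes in the lower block 8 are below their mean in SBES 1, 11 in SBES 2 and 4 in SBES 3.

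Stimulated libraries were last compared with sham, which shows injury and stimulation together. This comparison shares its sham libraries with the first and its SBES libraries with the second, so its values are not independent of theirs. Across all genes edgeR called 55, or 0.346%, and 132 with the replicate number as a block, while 0 of the 37 members were called in either fit or with DESeq2. 1 member, Slc16a1, had an unadjusted p under 0.05, against 9.31% of all genes. Without overlap 2 members were higher (7.1% of all genes), Gpi1 and Hk1, and 4 were lower, 10.8% of the members against 6.73% of all genes: Slc16a1, Fh1, Mdh1 and Idh3a.

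Slc16a1 carries lactate, pyruvate and ketone bodies across membranes together with a proton. Its levels were 9.30, 11.7 and 10.01 in sham, 5.003, 10.6 and 12.5 in untrained and 7.30, 6.19 and 4.74 in SBES libraries. The SBES libraries were all below sham, while the untrained ones were spread over the whole range, with untrained 1 the second lowest of the 9. The log2 fold change against sham was -0.77 (SE 0.31, 95% interval -1.45 to -0.09, adjusted p = 0.461 with edgeR). Without the 3 libraries numbered 1 it was -0.98 and passed, with an adjusted p of 0.0265 in edgeR. That was the 1 setting of those tried in which a member was called. The same setting called 575 of all 15893 genes, against 55 in the main fit, and 1 of the 37 members. The pass therefore does not set Slc16a1 or the members apart from the other genes. Oligodendrocytes and endothelium are known sites of Slc16a1. The sum over 11 oligodendrocyte markers was 6840 to 14110 in sham and 6221 to 9857 in SBES libraries. Of these 8 of 11 were lower, 3 of them at an unadjusted p under 0.05, and none was at 0. Endothelial and pericyte markers summed to 196 to 338 in sham and 346 to 508 in SBES libraries. Of these 9 of 11 were higher, 3 of them at an unadjusted p under 0.05. The part of either marker set in the Slc16a1 difference was not tested.

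Fh1 was at 26.7, 28.2 and 32.1 in SBES libraries, below all 3 sham libraries, with a log2 fold change of -0.43 (SE 0.21, adjusted p = 0.565 with edgeR). Mdh1 was at 995, 813 and 862, with -0.41 (SE 0.24, adjusted p = 0.667 with edgeR), and Idh3a, with sham levels of 32.7, 37.99 and 34.7, gave -0.31 (SE 0.20, adjusted p = 0.6998 with edgeR). SBES levels of Idh3a were also below every untrained library, while those of Fh1 and Mdh1 overlapped the untrained ones. Gpi1, at 72.1, 54.9 and 57.9, gave 0.37 (SE 0.22, adjusted p = 0.680 with edgeR). Hk1 was at 8.17, 9.03 and 7.64 in sham and 12.8, 9.04 and 9.68 in SBES libraries, so that SBES 2 and sham 2 were almost equal, and gave 0.34 (SE 0.21, adjusted p = 0.693 with edgeR).

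All 11 cycle members had a negative log2 fold change in this comparison, from -0.43 for Fh1 to -0.05 for Idh3g, with a median of -0.26. Of all genes tested 50.2% were negative, with a median of -0.0018. The 11 genes come from the same libraries and are not 11 separate observations. Leaving out sham 2 left 9 negative, and leaving out SBES 1 or SBES 2 left 10. Motor neuron markers summed to 231 to 285 in SBES and 272 to 687 in sham libraries. Of these 6 of 11 were negative, 1 of them called by edgeR, and 5 were positive. Oligodendrocyte markers summed to 6221 to 9857 against 6840 to 14110, with 8 of 11 negative and 3 positive. The part of these markers in the cycle values was not tested. In glycolysis 10 of 17 were negative (median -0.07, but -0.041 without sham 1, 0.04 without sham 2 and 0.14 without SBES 2), and in the pyruvate and lactate steps 6 of 9 (median -0.17, but -0.038 without sham 1, -0.088 without SBES 2, -0.093 without sham 2, -0.26 without sham 3 and -0.27 without SBES 1). The cycle median was -0.17 without sham 2. Over all members 27 of 37 were negative. The summed levels rest largely on a few genes. In sham, Aldoa and Aldoc had mean levels of 1641 and 2721 in a mean glycolysis sum of 6079. Mdh1, the cytosolic form, had 1186 in a mean cycle sum of 2059. The ratio of summed glycolysis to summed cycle levels was 2.95 ± 0.288 in sham, 3.34 ± 0.186 in untrained and 3.35 ± 0.477 in SBES libraries (SD, n = 3). Per library it was 3.27, 2.89 and 2.70 in sham, 3.55, 3.20 and 3.27 in untrained and 3.90, 3.06 and 3.09 in SBES. The groups overlapped. Each untrained and each SBES library was above the sham library of the same number, a pairing that the main fit did not use. That order was not tested, since 3 pairs are too few for an exact test to pass.

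**Figure D4:**
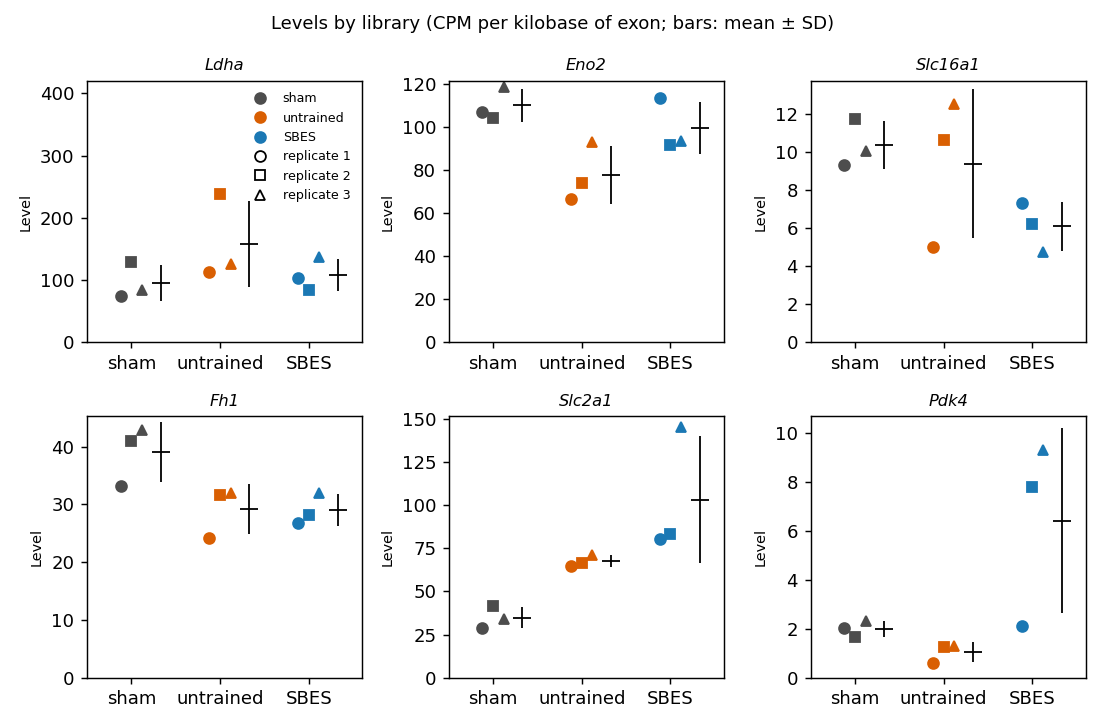
Levels of 4 members (Ldha, Eno2, Slc16a1, Fh1) and of Slc2a1 and Pdk4 by group, in CPM per kilobase of exon, with each library as a point and the mean ± SD of 3 libraries as a bar. Slc2a1 lies at 28.9 to 41.3 in sham libraries and at 64.7 or higher in the other 6.

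Pairs of genes that encode alternative forms of 1 enzyme or transporter were compared as shares within a library, which cancels the library total. The size of a share still depends on the exonic lengths of the genes. In phosphofructokinase, the Pfkl share was 11.5%, 15.2% and 12.8% in sham, 18.4%, 20.5% and 17.3% in untrained and 12.5%, 12.3% and 16.4% in SBES libraries. The untrained libraries were above all others, with means of 18.7% ± 1.62 (SD, n = 3) against 13.2% ± 1.91 in sham and 13.8% ± 2.33 in SBES libraries. Pfkm took 73.2% ± 2.42, 66.9% ± 3.46 and 73.7% ± 1.94, without overlap between untrained and SBES libraries alone. With 3 libraries against 3 the smallest exact permutation p is 0.1, so no share was tested, and the Pfkl share was 1 of 11 computed.

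Neuronal enolase made up 35.2%, 27.7% and 33.2% of the enolase level (Eno1 and Eno2) in sham, 15.6%, 19.5% and 30.3% in untrained and 31.8%, 37.3% and 26.6% in SBES libraries. Untrained 1 and 2 were the lowest of the 9, while untrained 3 lay within the range of both other groups. Eno1 holds much sequence shared with pseudogenes, so the absolute share is uncertain. Ldhb made up 96.1% ± 1.68, 92.5% ± 4.997 and 94.99% ± 0.850 of lactate dehydrogenase, with the lowest value, 86.96%, in untrained 2. Aldoc made up 62.6% ± 3.48, 62.9% ± 5.56 and 61.8% ± 3.24 of aldolase, differences well inside the spread. Slc16a3 took 3.85% ± 2.25, 6.50% ± 2.18 and 10.5% ± 7.70 of the 3 lactate transporter genes, and the last mean rested on SBES 3 (19.1%).

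**Figure D5:**
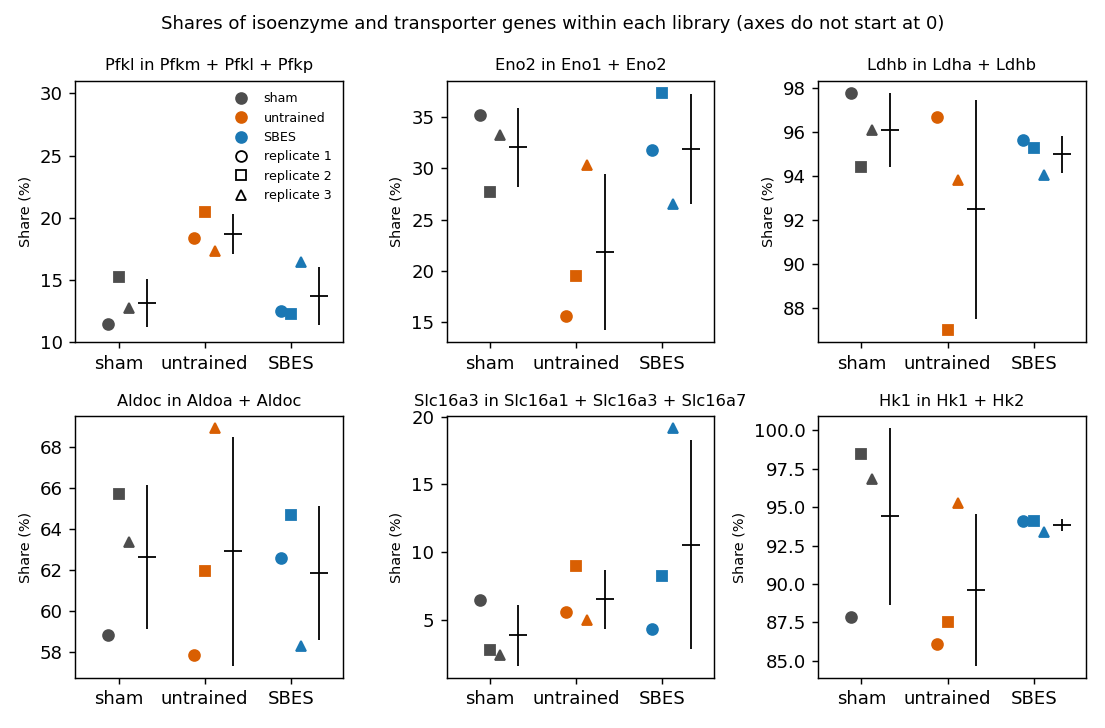
Share (%) of 1 gene within its enzyme or transporter family in each library, with the mean ± SD of 3 libraries as a bar. The Pfkl panel has untrained libraries at 17.3% to 20.5%, above the sham and SBES libraries, and the groups overlap in the other 5 panels.

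Upstream and side branches of the pathway were described by 92 further genes, of which 81 could be tested. Slc2a1, the GLUT1 glucose transporter of the blood-brain barrier and of astrocytes, was the 1 gene that edgeR called among them. DESeq2 called Slc2a1, Slc2a4 and Pdk4 in SBES against sham, Pdk4 in SBES against untrained and 0 genes in untrained against sham. Of all 15893 genes, edgeR called 55 (0.346%) in SBES against sham. DESeq2 called 300 there, 30 in SBES against untrained and 18 in untrained against sham. Slc2a1 levels were 28.9, 41.3 and 34.2 in sham, 64.7, 66.5 and 71.2 in untrained and 80.4, 83.1 and 145.5 in SBES libraries, so that the 3 groups did not overlap. It rose in SBES against sham, by a log2 fold change of 1.56 (SE 0.27, adjusted p = 0.0366 with edgeR, 2.02e-05 with DESeq2). Untrained against sham gave 0.95 (SE 0.26, adjusted p = 0.927 with edgeR). The call against sham was lost without sham 1, 2 or 3 (adjusted p = 0.0679, 0.110 and 0.228), without untrained 2 or 3 (0.0634 and 0.0508), without SBES 3 (0.114, log2 fold change 1.23) and with only the 2 groups in the fit (0.0743). Endothelial and pericyte markers summed to 346 to 508 in SBES and 196 to 338 in sham libraries, with 9 of 11 higher, 3 of them at an unadjusted p under 0.05, and their part in the Slc2a1 difference was not tested.

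Pdk4, a kinase that switches the pyruvate dehydrogenase complex off, had 2.02, 1.64 and 2.30 in sham, 0.584, 1.27 and 1.31 in untrained and 2.13, 7.80 and 9.30 in SBES libraries. SBES 2 and 3 were the highest, and SBES 1 lay within the sham range. Against untrained the log2 fold change was 2.61 (SE 0.49, adjusted p = 0.456 with edgeR, 2.14e-04 with DESeq2), and against sham 1.70 (SE 0.47, adjusted p = 0.194 with edgeR). Against untrained it passed edgeR without SBES 1 (log2 fold change 3.01, adjusted p = 0.0348) and without the 3 libraries numbered 1 (2.71, adjusted p = 0.0047). Slc2a4, the insulin-responsive glucose transporter, gave 1.797 against sham (SE 0.50, adjusted p = 0.200 with edgeR), with SBES levels of 2.27, 7.94 and 3.47 and sham levels of 1.75, 0.912 and 1.32. SBES 2 was the highest, and without it the value was 1.13.

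The hypoxia-inducible factor gene Epas1 gave 0.77 in SBES against sham (SE 0.26, adjusted p = 0.325 with edgeR) and 0.64 against untrained (SE 0.26), which was 0.42 without untrained 1. Bsg, which encodes the partner that brings MCT1 and MCT4 to the cell surface, was at 574, 662 and 619 in sham and 943, 932 and 703 in untrained libraries, with a log2 fold change of 0.48 (SE 0.23). In untrained against sham Idh2, the NADP-dependent mitochondrial isocitrate dehydrogenase, gave 0.72 (SE 0.27) and the alanine transaminase gene Gpt2 0.66 (SE 0.26). Against untrained the SBES libraries gave -0.61 (SE 0.26) for Rpe of the pentose phosphate pathway. The aspartate-glutamate carrier gene Slc25a13 was at 0.783, 1.08 and 1.86 in untrained and 2.17, 1.52 and 4.43 in SBES libraries, with a log2 fold change of 1.13 (SE 0.42) that was 0.56 without SBES 3. None of the genes in this paragraph passed the adjusted threshold with edgeR. Of the 81 genes, 3, 4 and 7 were higher and 0, 1 and 4 lower at an unadjusted p under 0.05 in the 3 comparisons in the order given above. In all these were 3.70%, 6.17% and 13.6% of the 81, near the 4.45%, 5.37% and 9.31% of all genes, and the medians were -0.05, -0.04 and -0.09.

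Many glycolytic genes are known targets of hypoxia-inducible factors, which bind a short core, so the promoters of the members were searched for it. The core was ACGTG or GCGTG on either strand, in the 250 bases before each RefSeq start site on GRCm38.p6. Overlapping matches count separately, so CACGTG holds 2. It occurred before 41 of 54 start sites of members (75.9%), at 23 of 30 in glycolysis, 7 of 9 in the pyruvate and lactate steps and 11 of 15 in the cycle, against 38.6% of all 32851 start sites. A gene with several start sites counts more than once. Ogdh in the cycle has several, with partly overlapping windows that all hold the core, so these shares do not compare the roles. By gene, 26 of 35 members held the core in a window (74.3%), against 41.5% of all genes. Base composition was not matched. A start site was given for 35 of the 37 members. Sequence is shown for Ldha, Slc16a1 and Eno2, the 3 members with an unadjusted p under 0.05 in some comparison, each 5′ to 3′ on the gene's own strand with matches in capitals. They lie at chr7:46845554-46845803 (plus strand, 5 matches), chr3:104638414-104638663 (plus strand, 4 matches) and chr6:124769674-124769923 (minus strand, no match), each directly before a RefSeq start site of the gene.
Ldha: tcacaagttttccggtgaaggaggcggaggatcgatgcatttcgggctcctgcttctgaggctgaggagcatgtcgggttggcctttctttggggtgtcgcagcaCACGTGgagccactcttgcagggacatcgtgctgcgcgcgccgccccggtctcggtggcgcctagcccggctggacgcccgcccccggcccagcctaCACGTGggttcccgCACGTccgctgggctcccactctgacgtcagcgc
Slc16a1: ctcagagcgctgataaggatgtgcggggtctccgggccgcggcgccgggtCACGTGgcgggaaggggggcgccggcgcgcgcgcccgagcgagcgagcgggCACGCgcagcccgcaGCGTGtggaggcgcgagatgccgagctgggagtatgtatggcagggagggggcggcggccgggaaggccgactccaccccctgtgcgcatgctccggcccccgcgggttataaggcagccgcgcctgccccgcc
Eno2: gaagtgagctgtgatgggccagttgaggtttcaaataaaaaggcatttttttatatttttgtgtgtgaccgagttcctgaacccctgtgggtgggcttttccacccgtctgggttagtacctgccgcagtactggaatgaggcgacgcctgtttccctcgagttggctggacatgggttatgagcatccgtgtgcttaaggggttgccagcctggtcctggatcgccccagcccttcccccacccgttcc
These Ldha and Slc16a1 windows hold several matches, and the Eno2 window holds none of these letters. A second Ldha start site, with the window chr7:46846832-46847081, holds 1 match and is not shown. A match is a description of the sequence and not a bound site.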

How the data were processed

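The members and all gene lists were chosen with earlier results of these data known. Per the labels' protocols, the authors aligned reads with Hisat2 2.0.1 to the genome mm10 (the build per the submitters' processing notes) and counted genes with HTSeq 0.6.1. The sources used here do not give the annotation release, the strand setting or the treatment of reads with several matches. A single table, deposited by the authors, holds whole-number counts and FPKM per library, with exonic gene lengths in bases per the file headers. FPKM recomputed from the counts and lengths matched 100% of the deposited FPKM values within 0.006, and the counts were tested. Table columns of the 3 untrained libraries and of SBES 1 were matched to libraries by elimination, and the others by name.

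Genes were tested with edgeR 4.0.16 in R 4.3.3 (quasi-likelihood, TMM, filterByExpr) in 1 fit over 9 libraries with a coefficient per group. A gene was called at a Benjamini-Hochberg adjusted p under 0.05 over the 15893 genes tested, and the procedure was tested on simulated data. Alternatives were DESeq2 1.42.0, its size factors, no filter, only the groups compared, a replicate block, leaving out each library, and leaving out the 3 libraries numbered 1. Same-numbered libraries deviated together in SBES against sham (r = 0.27, 0.16 and 0.14 over genes). They did not in every pair of the other comparisons (lowest r = 0.001 and -0.17). SBES 3 deviated no less with sham 2 (r = 0.17) than with sham 3. The main fit did not treat the numbers as pairs in any comparison, and only the replicate block used them.

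A member was named with its fold change where the libraries of the groups did not overlap or the unadjusted p was under 0.05, up to 10 per comparison. The same rule named up to 4 per comparison among the 92 further pathway genes. Symbols matched 38 identifiers, of which the second Aldoa identifier (1 to 10 counts) was left out. Repeated sequence was searched in GENCODE M21 transcripts, and promoters come from RefSeq. The counts may hold PCR copies of the same molecule.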

Additional observations from a re-analysis of the deposited data

How the results depend on the processing

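The number of members called by edgeR was 0 in every comparison and setting except 1, in which Slc16a1 passed in SBES against sham without the libraries numbered 1. The number of all genes called moved widely. In untrained against sham it was 0, and 134 with no filter on low counts, 4 with the replicate block, 47 without the libraries numbered 1 and 18 with DESeq2. In SBES against untrained it was 0, and 186 with no filter, 13 without the libraries numbered 1 and 30 with DESeq2; leaving out 1 library gave 0 to 1, and the replicate block 0. In SBES against sham it was 55, and 517 with no filter, 132 with the replicate block, 575 without the libraries numbered 1 and 300 with DESeq2; leaving out 1 library gave 0 (without sham 3) to 87 (without SBES 1), with 28 without sham 1, 6 without sham 2, 24 without untrained 2 and 4 without SBES 3. The cause was not tested. The replicate block changed no call of a named gene.

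The glycolysis median in SBES against sham ran from -0.077 to 0.14 when 1 library was left out, and the median of the pyruvate and lactate steps in SBES against untrained moved from -0.17 to -0.36 without the libraries numbered 1. Of the share differences, in percentage points, Pfkp in SBES against sham moved from -1.14 to -2.36 with shares from counts, Slc16a7 from -0.58 to -1.47 in untrained against sham and from 0.62 to 1.53 in SBES against untrained with shares from counts, and Pfkfb3 in SBES against untrained from 0.18 to 1.13 without the libraries numbered 1. The other 260 recomputed share differences and 133 recomputed medians stayed within the spread between replicates. Among the named members, none of them called, leaving out 1 library moved the log2 fold change by over 1.5 times for Ldha (0.31 without untrained 2), Fh1 (-0.27 without untrained 1), Mdh1 (-0.18 without untrained 2) and Gpi1 (0.24 without untrained 2) in untrained against sham, for Pdhb (-0.16 without untrained 3) and Sucla2 (-0.22 without SBES 3) in SBES against untrained, and for Hk1 (0.21 without SBES 1) in SBES against sham. Without the libraries numbered 1, Gpi1 and Hk1 in SBES against sham were at 0.15 and 0.18, and Idh3a in SBES against untrained at -0.17. With 3 libraries per group, a member's log2 fold change carried an SE of 0.20 to 0.64, which limits the size of change that could be called.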
